A study of Mus musculus with 18 samples.

Results

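The genes described are 4 receptors of the TREM family (*Trem1*, *Trem3*, *Treml2* and *Treml4*), the adaptor gene *Tyrobp* and the kinase gene *Syk*. They were chosen by gene symbol, and all 6 were found among the 34896 genes of the expression table. TREM receptors are immunoglobulin-like proteins on the surface of myeloid cells. TREM1, TREM3 and TREML4 have short cytoplasmic tails and signal through DAP12, the product of *Tyrobp*, whose ITAM motif is phosphorylated by SRC family kinases and then recruits and activates SYK. In neutrophils TREM1 is known as an amplifier of the inflammatory response to microbial products.

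The cells came from the bone marrow of C57BL/6 mice aged 6 to 12 weeks. Granulocyte-monocyte progenitors (GMP), pre-neutrophils (preNeu) and mature neutrophils (matNeu), all wild type (WT), were profiled by RNA-seq with 3 libraries each, and their H3K4me2, a histone mark of active promoters and enhancers, by ChIP-seq with 1 library each. CHD4, the remodeling subunit of the NuRD complex, was mapped by ChIP-seq in GMPs of WT and *Gfi1*-/- mice with 1 library each, to ask where it depends on GFI1, a transcriptional repressor. Cells were sorted by surface markers, KIT and CD34 among them for GMPs and CXCR2 for matNeu. The labels give a cell type in 2 places that disagree for 13 of 18 samples, including all 9 RNA-seq samples, and the titles were used. The markers follow the titles: *Kit* and *Cd34* summed to 603 to 693 TPM (a level per transcript length, as a share of the library) in GMP and to 3.18 to 6.24 TPM in matNeu, and 4 mature neutrophil markers summed to 9.60 to 16.4 TPM in GMP and to 19406 to 23799 TPM in matNeu. Markers of monocytes and macrophages, which also use *Tyrobp* and *Syk*, summed to 1498 to 1834 TPM in GMP, 39.8 to 74.3 TPM in preNeu and 338 to 461 TPM in matNeu (8 genes, with *Ccr2* under 1 TPM in every matNeu library). In matNeu this sum was mostly *Csf1r* (309, 253 and 349.6 TPM) and *Adgre1* (75.7, 78.7 and 97 TPM), while *Ccr2* and *Ms4a6c*, markers of monocytes, were at 0.558, 0.269 and 0.891 TPM and at 1.45, 1.69 and 1.98 TPM. Early neutrophil markers summed to 14.1 to 22.6 TPM in GMP, 94953 to 119046 TPM in preNeu and 2353 to 4518 TPM in matNeu, and those of eosinophils, basophils and mast cells to 1088 to 1358, 93.6 to 151 and 1.24 to 6.79 TPM. The lymphocyte and NK cell list summed to 0 to 0.603 TPM in GMP, 6.58 to 21.1 TPM in preNeu and 22.6 to 63.1 TPM in matNeu. Of this list *Cd79a*, a marker of B cells, was called higher from GMP to matNeu, the direction of the 6 genes, while *Cd3e* and *Ncr1*, markers of T and NK cells, were at or under 1.17 TPM in every library. The dendritic cell, erythroid and platelet lists each summed to at most 50.2 TPM in any library. Of the dendritic cell list, *Siglech* (8.30, 11.6 and 6.60 TPM in matNeu) and *Cd209a* were called higher from GMP to matNeu, and *Flt3* lower. *Siglech* is also among the other receptors that pair with DAP12 counted below. The part of other cells in the changes below was not tested.

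All 6 genes were higher in matNeu than in GMP, and they took different paths. *Trem3* reached its level at the preNeu stage, *Trem1*, *Tyrobp* and *Syk* gained at both steps, *Treml4* went from near 0 in GMP to at least 38.3 TPM in matNeu, and *Treml2* changed least. Levels are TPM, and changes are differences in log2(TPM + 1), which understate the change of low genes. In these bulk samples, fewer cells that express a gene and less RNA per cell cannot be told apart.

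*Trem1* was measured at 22.5, 18.2 and 20.5 TPM in the 3 GMP libraries, at 70.5, 77.2 and 95.7 TPM in preNeu and at 492, 493 and 619 TPM in matNeu. The 3 cell types did not overlap, and the mean TPM was 26.2 times higher in matNeu than in GMP. Both steps passed the test (limma on log2(TPM + 1), p-values adjusted by Benjamini and Hochberg over all genes tested), the first with a log2 change of 1.94 ± 0.16 (SE), adjusted p = 3.5e-06 and the second with a log2 change of 2.71 ± 0.16 (SE), adjusted p = 1e-07.

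*Trem3*, the neighbour of *Trem1* on chromosome 17, encodes another activating receptor that pairs with DAP12. It stood at 175, 136 and 153 TPM in GMP and at 977, 854 and 698 TPM in preNeu, with every preNeu library above every GMP library (log2 change of 2.43 ± 0.16 (SE), adjusted p = 8.7e-07). In matNeu it was at 759, 839.6 and 615 TPM, a range that overlapped preNeu, and the second step did not pass the test (log2 change of -0.19 ± 0.16 (SE), adjusted p = 0.33). The direction of this second step depended on the scaling: it was 0.57 with each library centred on its median (adjusted p = 0.025) and -0.79 after quantile normalisation (adjusted p = 0.0027).

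*Treml4*, which encodes a receptor known to bind dead cells, was listed at 0, 0.285 and 1.55 TPM in the GMP libraries. It was at 16.8, 22.3 and 18.1 TPM in preNeu and at 68.3, 38.3 and 43.7 TPM in matNeu. The cell types did not overlap. The first step had a log2 change of 3.75 ± 0.35 (SE), adjusted p = 9.7e-06, and the second a log2 change of 1.32 ± 0.35 (SE), adjusted p = 0.0074. When 0.1 was added to each TPM before taking logs, the second step no longer passed (log2 change 1.36, adjusted p = 0.17).

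*Treml2*, which encodes a TREM-like receptor without the charged residue that binds DAP12, was at 26.3, 27.8 and 28 TPM in GMP, at 29.1, 34.9 and 51.4 TPM in preNeu and at 46.7, 53.5 and 64.1 TPM in matNeu. Every preNeu library lay above every GMP library, while preNeu and matNeu overlapped. The first step did not pass the test (log2 change of 0.44 ± 0.21 (SE), adjusted p = 0.097), although it did after either scaling (log2 change 1.07 and 1.08) and without preNeu replicate 1 (0.61). The second step passed narrowly (log2 change of 0.53 ± 0.21 (SE), adjusted p = 0.049) and was called under 6 of 17 other settings. Of the 9 fits that left out 1 library it was called in 2 (without preNeu replicate 3 and without matNeu replicate 1), and the adjusted p reached 0.18. The change from GMP to matNeu passed with a log2 change of 0.96 ± 0.21 (SE), adjusted p = 0.0015, and under all 17 other settings.

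*Tyrobp* was measured at 189, 262 and 255 TPM in GMP, at 663, 549.8 and 538 TPM in preNeu and at 4541, 2959 and 2474 TPM in matNeu. The cell types did not overlap, and the matNeu libraries were spread most widely (3325 ± 1081 TPM, SD, n = 3). The first step had a log2 change of 1.31 ± 0.21 (SE), adjusted p = 0.00036, and the second a log2 change of 2.47 ± 0.21 (SE), adjusted p = 2.2e-06. By mean TPM *Tyrobp* ranked 719 among the 13061 genes tested in GMP, 187 in preNeu and 34 in matNeu.

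*Syk* was at 41, 46.2 and 58.2 TPM in GMP, at 79.8, 96.9 and 102 TPM in preNeu and at 256, 266 and 365 TPM in matNeu, again without overlap between cell types. Its first step had a log2 change of 0.93 ± 0.18 (SE), adjusted p = 0.0012, and its second a log2 change of 1.65 ± 0.18 (SE), adjusted p = 1.4e-05.

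**Figure D1:**
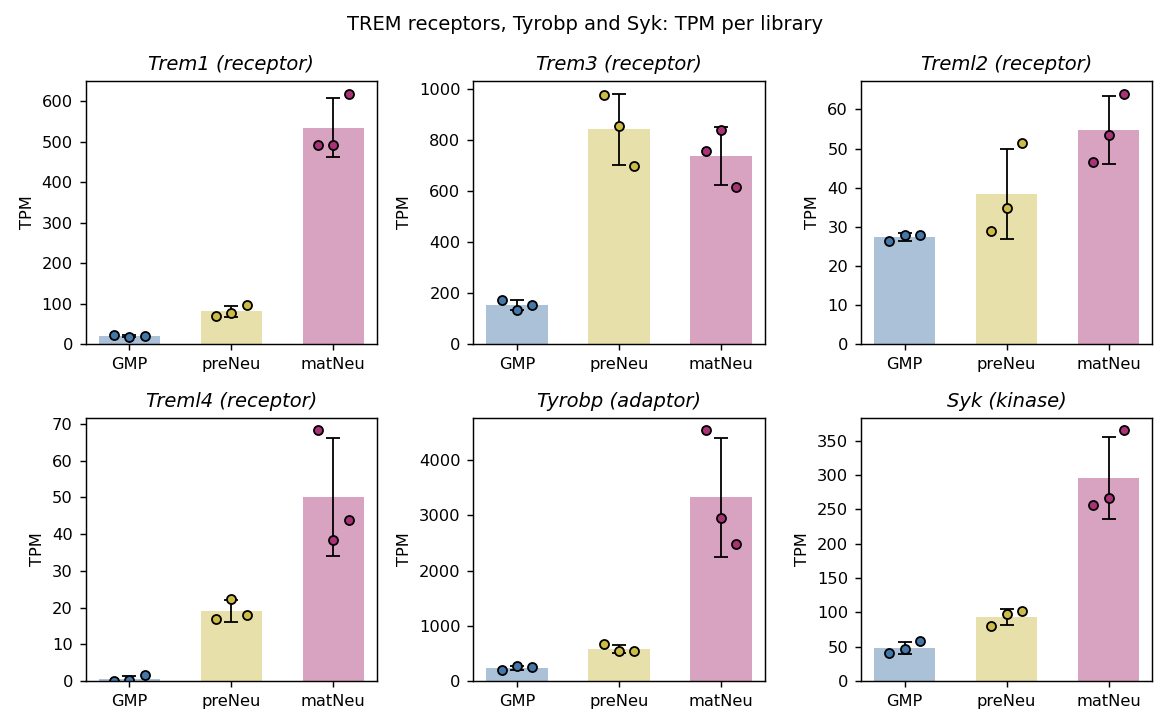
TPM of each gene (vertical axis, a scale per panel) in GMP, preNeu and matNeu. Points are the 3 libraries of a cell type, bars their mean and error bars 1 SD. *Trem3* is high from preNeu on, while *Trem1*, *Tyrobp* and *Syk* are highest in matNeu.

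Of the 6 genes, 5 were called higher in preNeu than in GMP, against 14.7% of all genes tested. From preNeu to matNeu 5 were called higher and 0 lower, against 22.9% and 39.8% of all genes. From GMP to matNeu 6 were called higher and 0 lower, against 22.8% and 54.1%. The median of all genes moved by -0.52 from GMP to preNeu, by -0.32 from preNeu to matNeu and by -0.92 from GMP to matNeu on the log2 scale. Relative to that median the genes changed from GMP to matNeu by 5.99 (*Treml4*), 5.57 (*Trem1*), 4.70 (*Tyrobp*), 3.50 (*Syk*), 3.17 (*Trem3*) and 1.89 (*Treml2*). With 3 libraries against 3, an exact permutation test of 1 gene cannot give a p-value under 0.1.

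The steps were also compared with each other, in a contrast added after the values had been seen. The first step exceeded the second for *Trem3* (difference 2.62 ± 0.28 (SE), adjusted p = 2.9e-05) and *Treml4* (difference 2.43 ± 0.61 (SE), adjusted p = 0.0079), and did so under all 16 other settings. The second step exceeded the first for *Trem1* (difference -0.77 ± 0.27 (SE), adjusted p = 0.037) and *Tyrobp* (difference -1.15 ± 0.37 (SE), adjusted p = 0.025), but under 7 and 9 of the 16 other settings only, and after quantile normalisation the *Trem1* difference was 0.30. *Syk* (difference -0.72 ± 0.31 (SE), adjusted p = 0.083) and *Treml2* (difference -0.09 ± 0.36 (SE), adjusted p = 0.86) did not pass, although *Syk* did under 2 of the 16 other settings, with centred libraries (adjusted p = 0.028) among them. The difference is signed, the first change minus the second, and was positive and called for 21.5% of all genes tested and negative and called for 26.4%. For genes that fell, a positive difference can mean a larger second fall.

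**Figure D2:**
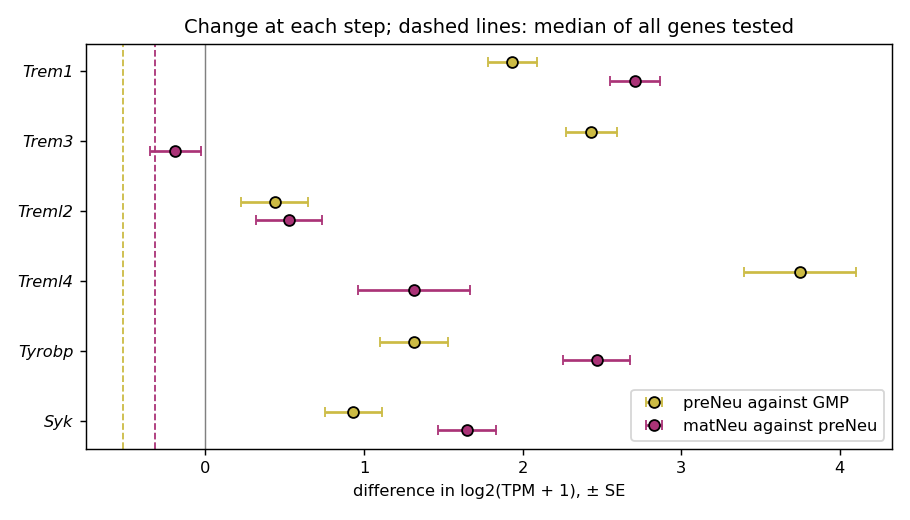
Difference in log2(TPM + 1) with its SE (horizontal axis) for each gene at each step; dashed lines mark the median of all genes tested. *Trem3* and *Treml4* changed more at the first step, and the second step of *Trem3* lies near 0.

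TPM is per length, so that levels of different genes can be set side by side. In GMP the order was *Tyrobp*, *Trem3*, *Syk*, *Treml2*, *Trem1* and *Treml4*, and no neighbours in this order overlapped. In preNeu *Trem3* (mean 843 TPM) stood above *Tyrobp* (mean 584 TPM) in 3 of 3 libraries, and *Syk* and *Trem1* overlapped. In matNeu *Tyrobp* was first by mean (3325 TPM), the ranges of *Trem3* and *Trem1* overlapped, and so did those of *Treml2* and *Treml4*. As a share of the summed TPM of the 4 receptors, *Trem1* made up 9.99 to 10.1% in GMP, 6.45 to 11.1% in preNeu and 34.6 to 46.1% in matNeu, and *Trem3* 74.6 to 78.2%, 80.9 to 89.4% and 45.8 to 58.9%. The summed receptor TPM was 0.694 to 1.18 times that of *Tyrobp* in GMP, 1.61 to 1.80 times in preNeu and 0.301 to 0.542 times in matNeu. The 3 ranges did not overlap. *Treml2* is included in this sum although it is not known to use DAP12.

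**Figure D3:**
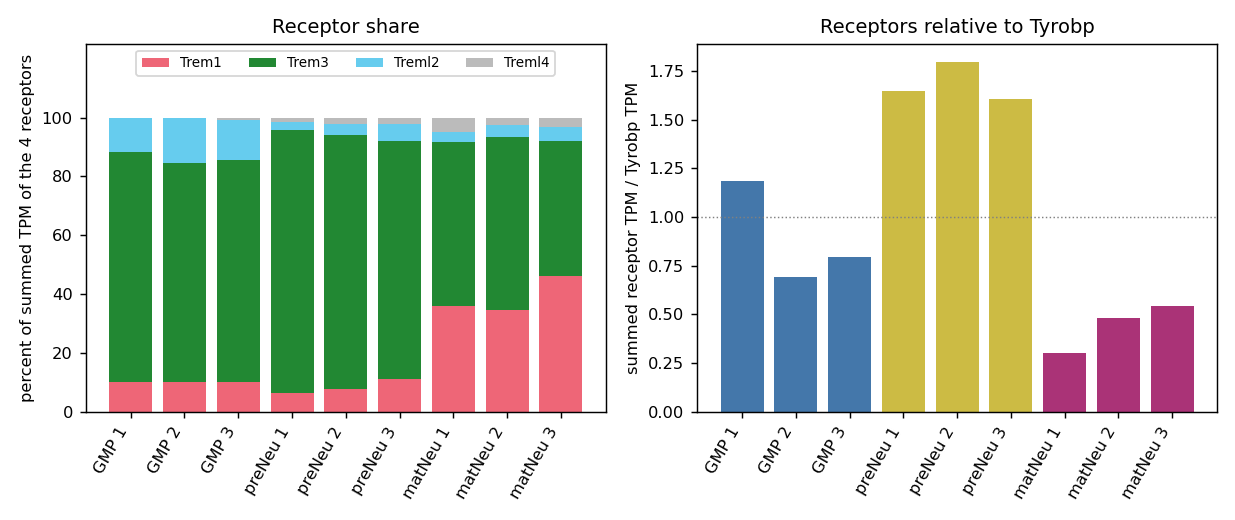
Left, share of each receptor in the summed TPM of the 4 receptors (percent) per library; right, that sum divided by the TPM of *Tyrobp*, with a dotted line at 1. The ratio is highest in the 3 preNeu libraries and lowest in the 3 matNeu libraries.

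Among the other genes of the TREM cluster, *Trem2*, a receptor of macrophages and microglia that also uses DAP12, went the other way. It was at 13.5, 8.68 and 6.49 TPM in GMP and at 1.52, 0.0519 and 0.359 TPM in matNeu (log2 change of -2.73 ± 0.39 (SE), adjusted p = 6.7e-05). *Treml1*, a gene of platelets, was at or under 0.348 TPM in every library and was not tested. *Treml6* was not analysed here.

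Of the adaptors, *Fcer1g*, which encodes the ITAM-bearing gamma chain of Fc receptors, was at 125, 156 and 133 TPM in GMP, 466, 397 and 366 TPM in preNeu and 1343, 933 and 778 TPM in matNeu (log2 change of 2.84 ± 0.19 (SE), adjusted p = 1.4e-07). *Hcst*, the gene of DAP10, lies 127 bp beyond *Tyrobp* on the other strand, and whether the counting used strand is not given. It was at 12.8, 13.9 and 13.2 TPM in GMP and at 201, 105 and 68 TPM in matNeu (log2 change of 2.99 ± 0.32 (SE), adjusted p = 6.5e-06). *Cd247*, the zeta chain of T cells, did not pass from GMP to matNeu (log2 change of -0.18 ± 0.35 (SE), adjusted p = 0.64), although with centred libraries it was called higher, as were *Fcer1g* and *Hcst*, and *Zap70*, the paralog of *Syk* in T cells, was listed at 0 in 8 of 9 libraries.

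Of 9 other receptors that pair with DAP12, 8 rose and 1 fell from GMP to matNeu, where 22.8% of all genes tested rose and 54.1% fell. The largest rise was that of *Sirpb1b*, from 0.111, 0.218 and 0.168 TPM to 942, 902 and 976 TPM, although near-identical copies of this gene can share its reads. *Klrk1*, the gene of NKG2D, fell by 2.73 on the log2 scale (adjusted p = 0.0003). Of 4 tested ligands and co-receptors, 2 rose and 1 fell, against 3 and 1 under either scaling. More of all 13061 genes rose under the scalings as well (6023 centred and 4991 quantile normalised, against 2976 in TPM). *Pglyrp1*, whose granule protein is a ligand of TREM1, was at 21, 31 and 40.5 TPM in GMP, 824, 668 and 634 TPM in preNeu and 1147, 1030.5 and 680.4 TPM in matNeu, and only its first step passed (log2 change of 4.52 ± 0.25 (SE), adjusted p = 2.4e-07, against a second step with a log2 change of 0.40 ± 0.25 (SE), adjusted p = 0.18). *Hmgb1*, a nuclear protein also described as a ligand, had a log2 change of -3.19 ± 0.12 (SE), adjusted p = 2.7e-09 from GMP to matNeu.

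Of 4 tested SRC family kinases, 3 rose and 1 fell from GMP to matNeu, against 3 and 0 with centred libraries. *Fgr* was at 0.93, 0.846 and 0.635 TPM in GMP and at 779, 829 and 801 TPM in matNeu, and *Fyn* fell by 2.02 on the log2 scale. Of 21 signaling genes downstream of SYK, 8 rose and 8 fell (median log2 change 0.05), beside the 22.8% and 54.1% of all genes. These counts moved with the scaling, to 16 and 3 with centred libraries and to 13 and 4 after quantile normalisation. The whole set of 13061 genes moved too. Of these, 6023 rose and 4063 fell with centred libraries, and 4991 rose and 4958 fell after quantile normalisation. The adaptor *Blnk*, also active in B cells, whose marker *Cd79a* was higher in matNeu too, had a log2 change of 2.48 ± 0.39 (SE), adjusted p = 0.00014, and the phospholipase *Plcg1* a log2 change of -3.31 ± 0.37 (SE), adjusted p = 9.2e-06. Of 11 negative regulators, 6 rose and 3 fell, against 8 and 2 under either scaling. *Pag1*, an adaptor that recruits CSK, had a log2 change of 3.91 ± 0.17 (SE), adjusted p = 5.9e-09, and the phosphatase-like *Ubash3a* a log2 change of -5.62 ± 0.23 (SE), adjusted p = 3.7e-09. The sheddase *Adam10* went from 93.3, 87.3 and 92.5 TPM in GMP to 45.3, 41.6 and 48.3 TPM in matNeu. Both of 2 sheddases fell in TPM, both rose with centred libraries, and 0 passed after quantile normalisation. In TPM, 2976 of all genes rose and 7065 fell. These numbers, and those above for each scaling, are the background for the counts of every list. The median log2 change of all genes from GMP to matNeu was -0.92 in TPM. It was 0.47 with centred libraries and 0.03 after quantile normalisation.

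The genes most like each of the 6 in pattern were found by the root mean square difference of log2(TPM + 1), centred per gene, over the 9 libraries. They were *Phlda1*, *Fam129a* and *Kdm6b* for *Trem1* (0.205 to 0.221), *S1pr4*, *Degs1* and *Prdx5* for *Trem3* (0.174 to 0.204), *Abi1*, *Fem1c* and *Mtmr6* for *Treml2* (0.114 to 0.134), *Chac1*, *Ampd3* and *Ntng2* for *Treml4* (0.265 to 0.406), *S100a11*, *Orm2* and *Gm14654* for *Tyrobp* (0.169 to 0.272) and *Dck*, *Cfap43* and *Susd6* for *Syk* (0.102 to 0.154).

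Peaks were assigned to a gene when they overlapped it or the 10 kb on either side. Every condition had 1 library, so that no difference between peak lists has a replicate check. In GRCm38, with GENCODE M21 genes, *Trem1* (chr17:48232768-48246924), *Trem3* (chr17:48247777-48258841), *Treml4* (chr17:48264295-48275360) and *Treml2* (chr17:48299498-48312533) lie in a row on the plus strand, *Tyrobp* lies at chr7:30413760-30417585 and *Syk* at chr13:52583173-52648792. In WT GMPs 5 of the 6 genes had a CHD4 peak, against 32.4% of 21951 protein-coding genes. *Syk*, the longest, had 8, *Trem1* and *Treml4* had 3 each, *Treml2* had 2 and *Trem3* had 1, which it shared with *Trem1*. *Tyrobp* had 0, and its nearest CHD4 peak was 174.8 kb away. The peak covered the annotated start of 3 genes (*Trem1*, *Trem3* and *Syk*), as it did for 879 of the 21951 protein-coding genes.

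The 16 peaks had a fold enrichment of 3.63 to 9.84 over their background (median 6.45, against 7.72 for all 35790 peaks). The strongest peak at *Trem1* had its summit 74 bp before the start (fold enrichment 7.14), that at *Trem3* 63 bp before (4.49) and that at *Syk* 109 bp before (8.07). The 3 peaks of *Treml4* were in introns, the strongest 10042 bp from the start (6.44). The strongest peak assigned to *Treml2* (9.84) lay 3640 bp beyond its end and covered the start of the next gene, *B430306N03Rik*, and the other was 982 bp inside *Treml2* (6.46). The sequences at these strongest peaks are shown because none of these CHD4 sites was called in *Gfi1*-/- GMPs. The sequences are the plus strand of GRCm38, with matches to the GFI1 core (AAATCA), the SPI1 motif (GAGGAAGT) and the C/EBP motif (TTGCNNAA), searched on both strands, in capitals.
Trem1, chr17:48232594-48232794: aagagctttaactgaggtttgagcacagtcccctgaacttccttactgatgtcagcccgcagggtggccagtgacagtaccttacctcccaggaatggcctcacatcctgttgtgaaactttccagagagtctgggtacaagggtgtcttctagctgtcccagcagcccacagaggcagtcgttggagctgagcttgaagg
Trem3, chr17:48247614-48247806: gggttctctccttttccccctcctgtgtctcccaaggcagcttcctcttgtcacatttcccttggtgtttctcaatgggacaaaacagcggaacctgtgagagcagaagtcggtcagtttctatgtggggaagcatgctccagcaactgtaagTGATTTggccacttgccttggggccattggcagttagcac
Treml4, chr17:48274237-48274437: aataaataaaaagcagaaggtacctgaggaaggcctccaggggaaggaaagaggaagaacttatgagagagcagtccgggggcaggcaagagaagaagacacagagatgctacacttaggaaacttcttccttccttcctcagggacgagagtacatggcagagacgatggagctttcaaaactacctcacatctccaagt
Treml2, chr17:48316073-48316170: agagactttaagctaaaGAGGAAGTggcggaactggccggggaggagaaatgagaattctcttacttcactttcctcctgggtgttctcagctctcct
Syk, chr13:52582964-52583164: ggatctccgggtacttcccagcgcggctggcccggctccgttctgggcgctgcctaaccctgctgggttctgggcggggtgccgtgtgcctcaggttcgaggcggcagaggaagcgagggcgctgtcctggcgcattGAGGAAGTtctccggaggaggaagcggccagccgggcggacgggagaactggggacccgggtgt
The *Trem3* site held the GFI1 core on the minus strand, and the *Treml2* and *Syk* sites each held the SPI1 motif on the plus strand. The *Trem1* and *Treml4* sites held none of the 3. In windows of 100 bp on either side of all 16 summits, 2 held the GFI1 core, 3 the SPI1 motif and 2 the C/EBP motif, against 12.1%, 11.8% and 17.3% of all CHD4 windows. The windows of *Trem3* and *Treml2* were shortened at their right ends, to keep no more than 30 bases of transcribed, untranslated sequence each. The *Treml2* sequence therefore ends 3 bp before its summit.

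In *Gfi1*-/- GMPs 0 of the 6 genes had a CHD4 peak, against 10.2% of protein-coding genes, and the nearest such peak was 170.1 kb (*Syk*) to 881 kb (*Trem3*) away. Of the 16 WT peaks 0 overlapped a *Gfi1*-/- peak, against 18.5% of all WT peaks. Among WT peaks with a fold enrichment in the range of these 16 the share was 2.02%, so that at these enrichments the whole list, too, was nearly always without a *Gfi1*-/- peak. The *Gfi1*-/- list was shorter, with 7316 peaks against 35790, and covered 2.24 Mb against 15.1 Mb, from 1 library each. Whether a weaker library or less bound CHD4 gave the shorter list was not tested.

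**Figure D4:**
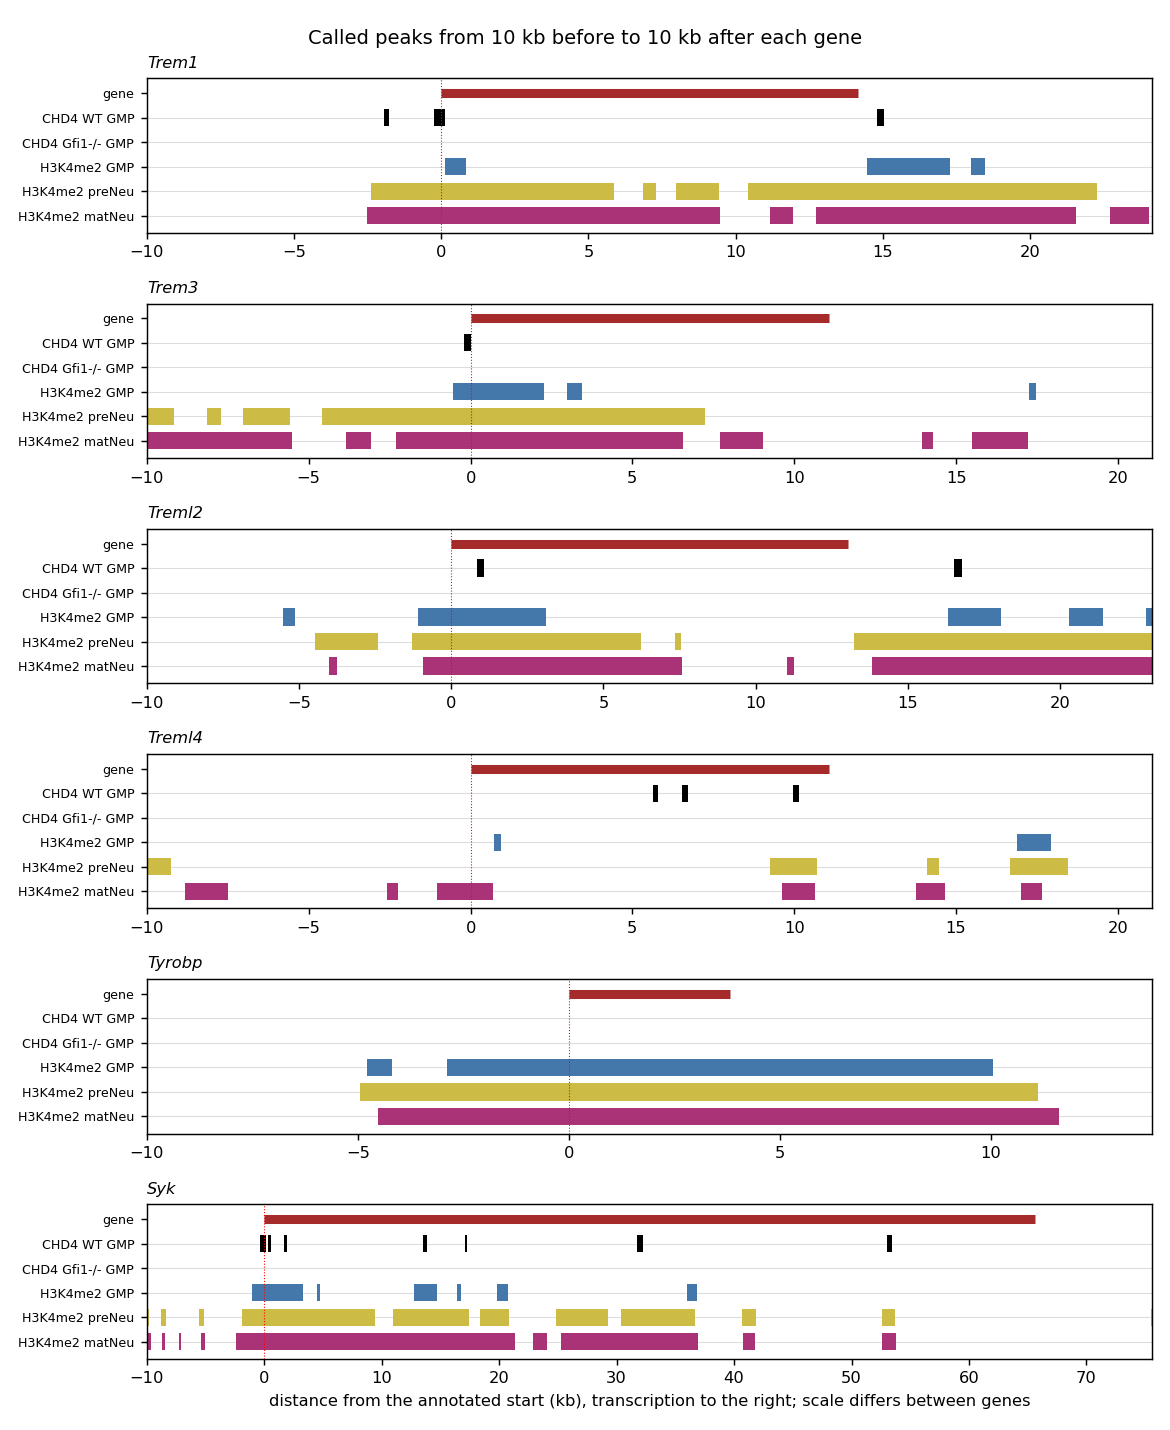
Called peaks around each gene, by distance from its annotated start (kb, horizontal axis); the brown bar is the gene and each row a peak list. CHD4 peaks are found in WT GMPs at every gene but *Tyrobp* and at none in *Gfi1*-/- GMPs, and H3K4me2 peaks widen from GMP to preNeu.

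All 6 genes had an H3K4me2 peak in each cell type, against 73.6% of protein-coding genes in GMP, 74.1% in preNeu and 72.0% in matNeu. A peak covered the start of 4 of the 6 in GMP (49.7% of protein-coding genes), of 5 in preNeu (55.1%) and of 6 in matNeu (52.8%). At *Trem1* the GMP peak began 129 bp after the start, and the start was covered in preNeu and matNeu. At *Treml4* the start was covered only in matNeu, by a weak peak (fold enrichment 2.53). The share of the gene and its 10 kb flanks under H3K4me2 peaks was 11.7% in GMP, 64.3% in preNeu and 67.1% in matNeu for *Trem1*, and 11.3%, 46.9% and 56.3% for *Trem3*. It was 23.0%, 59.3% and 55.1% for *Treml2*, 4.12%, 14.0% and 19.4% for *Treml4*, and 9.99%, 40.3% and 46.7% for *Syk*. *Tyrobp* was already covered in GMP (56.7%), and then at 67.4% and 67.7%. These windows take in neighbouring genes. The widest GMP peak at *Tyrobp* (12923 bp) also covered *Hcst* and the start of *Nfkbid*. In preNeu a peak of 14479 bp beyond *Treml2* covered *B430306N03Rik*. The windows of *Trem1*, *Trem3* and *Treml4* overlap and share peaks, so that their values are not separate. The median over protein-coding genes was 3.82%, 6.43% and 4.80%. The lists as a whole covered 49.8 Mb in GMP, 97.9 Mb in preNeu and 80.4 Mb in matNeu, and the median fold enrichment of their peaks was 2.89, 4.55 and 3.78, so that a weaker GMP library and a narrower mark cannot be told apart. All 18 GMP peaks near the 6 genes had a −log10 q-value under 5, while 16 of 23 in preNeu and 12 of 23 in matNeu reached it. The GMP peak over the start of *Treml2* (fold enrichment 3.64) had a −log10 q-value of only 4.70, although it stood at percentile 81.2 of its list by fold enrichment. The share of each whole list under this threshold was not counted, so that whether these counts are particular to the 6 genes was not tested.

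**Figure D5:**
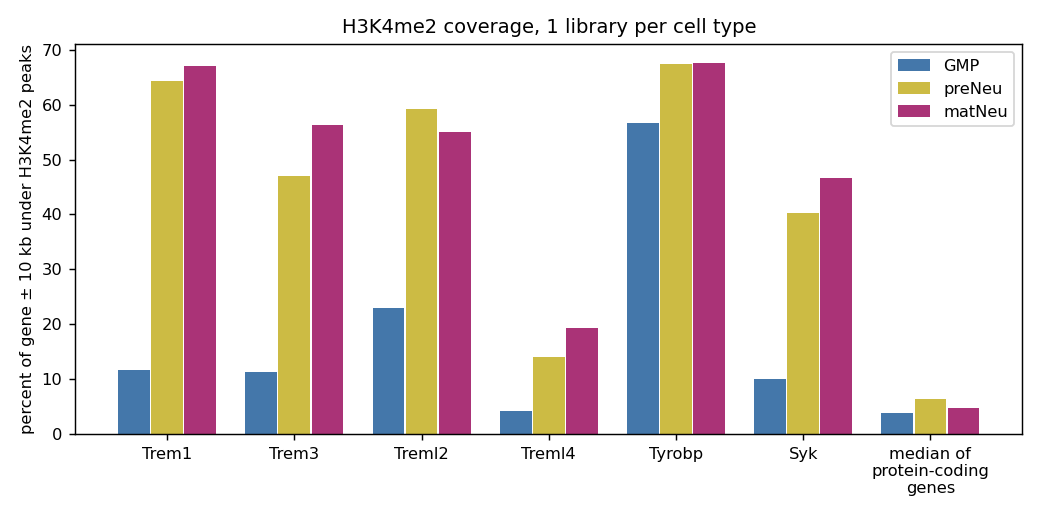
Percent of each gene with its 10 kb flanks under H3K4me2 peaks (vertical axis) in GMP, preNeu and matNeu, 1 library each, beside the median over protein-coding genes. Coverage of *Trem1* goes from 11.7% in GMP to 64.3% in preNeu, while *Tyrobp* is at 56.7% in GMP.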

How the data were processed

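Expression was measured by RNA-seq in GMP, preNeu and matNeu cells (3 libraries each), CHD4 and H3K4me2 by ChIP-seq (1 library each). The authors deposited TPM per gene and library. The submitters' processing notes name kallisto 0.44.0, BWA 0.7.17 and MACS2 2.1.0 and the build mm10, but how TPM was computed is not given in the sources used here. TPM is a share of each library and keeps no depth, so that a count test was not used. For peaks, the authors deposited a fold enrichment over background (a linear ratio), a −log10 p-value and q-value, and a score, which was not used. Read depth behind the peaks is unknown. Every expression column was used (0 left out).

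log2(TPM + 1) was fitted with limma 3.58.1 (trend) in R 4.3.3 over all 9 libraries, with a term for cell type. The 13061 genes that reached 1 TPM in 3 or more libraries were tested and called at an adjusted p under 0.05. The fit was tested on simulated data. A first criterion for this test was not met, and the one kept was chosen after that outcome, with the fit unchanged. Whether replicates came from separate mice is not given, so that p-values measure the spread between these libraries. Peaks were read with Python 3.11.15 and pandas 2.3.3, and sequences with samtools 1.23.1. An overlap of 1 bp made 2 peaks shared.

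The 6 genes and the gene lists were chosen with earlier results of these data known. Named beside them were all genes of the TREM cluster and adaptor lists, *Pglyrp1*, in each other list the gene with the largest called rise and fall from GMP to matNeu, the 3 genes most like each member, and markers of other cell types, some by name and the rest in their sums only. The GFI1 and H3K4me3 lists were set aside because some positions exceed the mouse chromosome lengths. Replicate numbers are shared between cell types, and the correlations of same-numbered libraries, −0.039 to 0.123, did not pair them. Alternatives were the pseudocount, the filter, scaling, the samples in the fit, a replicate block, the variance trend, each library left out, the peak threshold, the window and the overlap.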

Additional observations from a re-analysis of the deposited data

Results flagged for a closer look

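ATAC-seq, which marks open chromatin, enters no comparison above. The lists for preNeu and matNeu were identical and were used as 1 list, so that they give no difference between these cells. In this list 5 of the 6 genes had a peak within 10 kb, against 52.9% of protein-coding genes, and *Treml4* had none. The start of *Trem1*, *Trem3*, *Tyrobp* and *Syk* was covered. An ATAC-seq list of GMPs was not used here.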

How the results depend on the processing

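Of 306 values of the 6 genes under these other settings, 289 kept their direction and their side of the threshold, 12 no longer passed, 4 newly passed and 1 reversed, which was the second step of *Trem3* at 0.57 with libraries centred on their median. From preNeu to matNeu 3 of the 6 genes were called with a pseudocount of 0.1, where *Treml2* and *Treml4* no longer passed. Leaving out 1 library at a time gave 5 to 6 genes called from GMP to preNeu, 4 to 5 from preNeu to matNeu and 6 to 6 from GMP to matNeu. The numbers of all genes called in these fits were 6948 to 7845, 7683 to 8202 and 9659 to 10043.

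With the replicate block, 5, 5 and 6 of the 6 genes were called in the 3 comparisons, and 7652, 8142 and 10032 of all genes. The numbers do not pair the samples, and not every library correlated best with its own number. The scaling moved the share of higher calls among the genes called, which is not a share of all genes tested. From GMP to preNeu it went from 24.98% to 54.7% (centred) and 48.1% (quantile). From preNeu to matNeu it went from 36.5% to 63.0% and 50.3%, and from GMP to matNeu from 29.6% to 59.7% and 50.2%.

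For the difference between the steps, added after seeing the data, 4 of the 6 genes were called, and 2 without a filter on low values, after quantile normalisation and without the variance trend. With centred libraries and with the replicate block it was 5, since *Syk* passed as well (adjusted p = 0.028 and 0.026). Leaving out 1 library gave 2 to 4, with 2 without GMP replicate 3 and without preNeu replicate 2. It reversed for *Trem1* (0.30), *Treml2* (0.24) and *Syk* (0.11) after quantile normalisation, and for *Treml2* without 1 library (range -0.54 to 0.26, with 0.0064 without preNeu replicate 2 and 0.029 without matNeu replicate 3).

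When only peaks with a −log10 q-value from 5 upward were kept, the H3K4me2 peaks near the 6 genes went from 18 to 0 in GMP, from 23 to 16 in preNeu and from 23 to 12 in matNeu, so that the coverage in GMP rests on peaks under that threshold. How many peaks of each whole list fell under it was not counted. The CHD4 counts stayed at 14 to 16, and 0 of them overlapped a Gfi1-/- peak by either stricter rule. The cause of these differences was not tested.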
